A study of Mus musculus with 6 samples.

Results

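The genes for mitochondrial ribosomal proteins were examined in mouse regulatory T cells (Tregs, T cells that restrain immune responses) with and without the zinc finger transcription factor Zfp335. Members were the rows of the deposited count table whose symbol begins with Mrpl or Mrps followed by a digit, with processed pseudogenes (symbols holding -ps) left out. The rule found 78 genes among 32285 rows, of which 49 carry a large subunit symbol (Mrpl) and 29 a small subunit symbol (Mrps). It used no measured value. All 78 were among the 17307 genes that passed the expression filter and were tested.

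Bulk RNA-seq was done on splenic CD4+CD25+ cells of C57BL/6 mice, with 3 WT and 3 KO libraries. The labels call the KO mice ERCre+Zfp335f/f and Zfp335 deficient, and name the controls wild-type littermates. The methods describe the controls instead as ERCre mice that also received tamoxifen, with mice of 6 weeks given 3 injections and killed on day 7. In ERCre mice the Cre recombinase is tied to an estrogen receptor, is active only under tamoxifen and is not restricted to Tregs, so that other cells of the KO mice could also lose Zfp335. The labels do not say whether the libraries of a group came from separate animals, and p-values measure only the spread between these libraries.

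The mitochondrial ribosome translates the few mRNAs encoded by mitochondrial DNA, all for subunits of the oxidative phosphorylation complexes. Its RNAs come from mitochondrial DNA, whereas its proteins are encoded in the nucleus, made in the cytosol and imported. The small subunit reads the mRNA, and the large subunit forms the peptide bond and passes the new chain through an exit tunnel to the inner membrane. Some of its proteins have bacterial homologs and others are found only in mitochondria. Tregs are known to depend on oxidative phosphorylation more than conventional effector T cells do.

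Library totals lay between 133283969 and 209041812 counts. CPM, the level unit used below, divides each count by the size of its library in edgeR's usual unit, after TMM scaling for differences in RNA composition between libraries. Zfp335 itself had 124.4, 120.7 and 115.2 CPM in the WT libraries and 15.0, 14.3 and 15.1 CPM in the KO libraries, a log2 fold change of -3.02 (SE 0.046, adjusted p = 1.20e-13). All adjusted p-values come from the quasi-likelihood F-test of edgeR, with the Benjamini-Hochberg method applied across every gene tested. The Treg markers Foxp3 and Il2ra were present at 1136 ± 17.4 and 479.6 ± 16.05 CPM in WT and at 1052 ± 9.24 and 433.4 ± 5.99 CPM in KO (SD, n = 3). The groups also differed in markers of other cells. All 5 B cell markers fell (summed level 50.9 to 56.0 CPM in WT, 25.7 to 26.9 in KO), as did 4 of 5 myeloid markers (37.7 to 43.2 against 20.001 to 21.9) and all 6 red cell markers (36.6 to 43.5 against 1.81 to 2.31). The 4 CD8 T and NK cell markers summed to 15.0 to 15.9 CPM in WT and 14.4 to 15.8 in KO. The 7 Treg markers summed to 3575 to 3622 against 3669 to 3724 CPM. Cell cycle genes (11) summed to 1366 to 1449 against 1338 to 1366 CPM. The Treg and cell cycle sums held changes in both directions at an edgeR adjusted p under 0.05. Foxp3 and Il2ra fell (log2 fold changes -0.11 and -0.15), and Ctla4 and Tnfrsf18 rose (0.65 and 0.12). Mki67, Top2a, Ccnb1 and Cdk1 fell (-0.40, -0.36, -0.44 and -0.33), and Pcna rose (0.17). Xist, the RNA that silences an X chromosome in female cells, had 0.187 to 0.424 CPM in WT and 123.9 to 144.7 CPM in KO. By Xist, sex thus differed between the groups in every library, and its part cannot be told apart from that of Zfp335 loss. Of the 78 members 0 lie on chromosome X, and whether sex bears on members elsewhere was not tested. The part of the differences in cell markers in the results below was not tested.

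Loss of Zfp335 went with small and uneven changes among the mitochondrial ribosomal protein genes. At an adjusted p under 0.05, 8 members were lower and 4 were higher in KO, and 66 were not called. This was 15.4% of the members, against 24.1% of all genes tested (12.1% lower, 12% higher) and 31.4% of the 6759 genes in the members' range of expression (15.3% lower, 16.1% higher). The median log2 fold change of the members was -0.038, with quartiles of -0.10 and 0.041, and the median over all genes tested was -0.0042. A total of 45 members had a log2 fold change below 0 and 33 above.

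**Figure D1:**
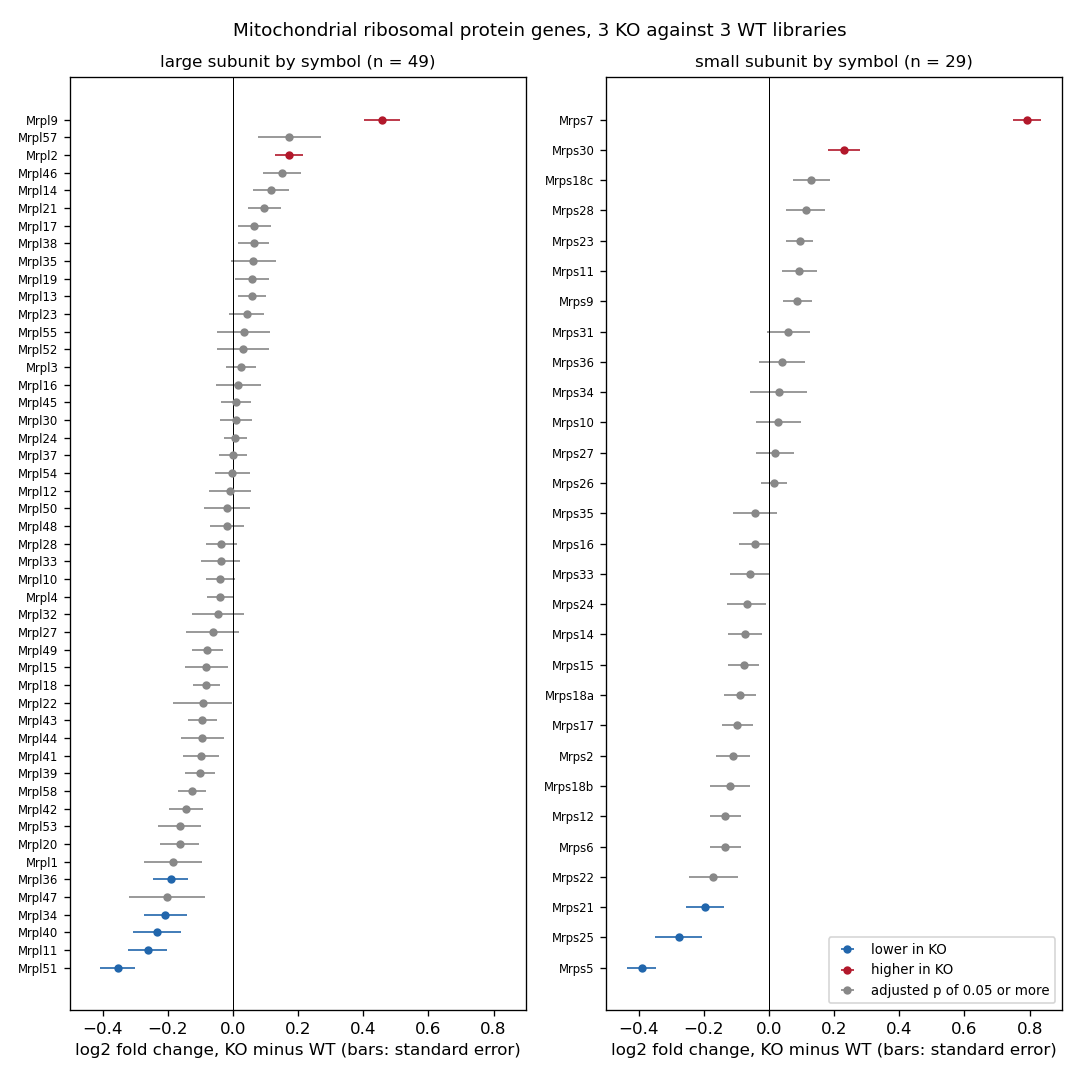
Log2 fold change (KO minus WT, x axis) of each of the 49 large subunit genes (left) and 29 small subunit genes (right), as points with standard errors as bars. Points in blue (8) were lower and points in red (4) higher in KO at an adjusted p under 0.05; most grey points lie close to 0, and Mrps7 stands farthest from it at 0.79.

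For most members the spread between these libraries was small and the intervals were narrow. The intervals measure this spread only, and they do not bound an effect of Zfp335 loss apart from that of sex. The CV between replicate libraries had a median over members of 4.17% in WT and 3.23% in KO. Of the 66 members not called, 58 had a 95% interval wholly within a 1.2-fold change in either direction. The widest was that of Mrpl47 (log2 fold change -0.20, 95% interval -0.46 to 0.052). In 59 of 78 members the change was under 10%, and in 35 it was under 5%. Even among the 12 members called, 7 changed by less than 1.2-fold. With the cutoffs that the study used for its other bulk RNA-seq (1.5-fold, p under 0.05 and adjusted p under 0.1), 1 member passed, Mrps7, which was higher, against 6.95% of all genes tested (4.37% lower, 2.58% higher). The count of calls depended on single libraries. It was 20 without WT replicate 1, 7 without WT replicate 2 and 6 without KO replicate 1. With no scaling beyond library size, 14 members were lower and 4 higher, and the lower share of all calls rose from 50.1% to 61.4%.

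**Figure D2:**
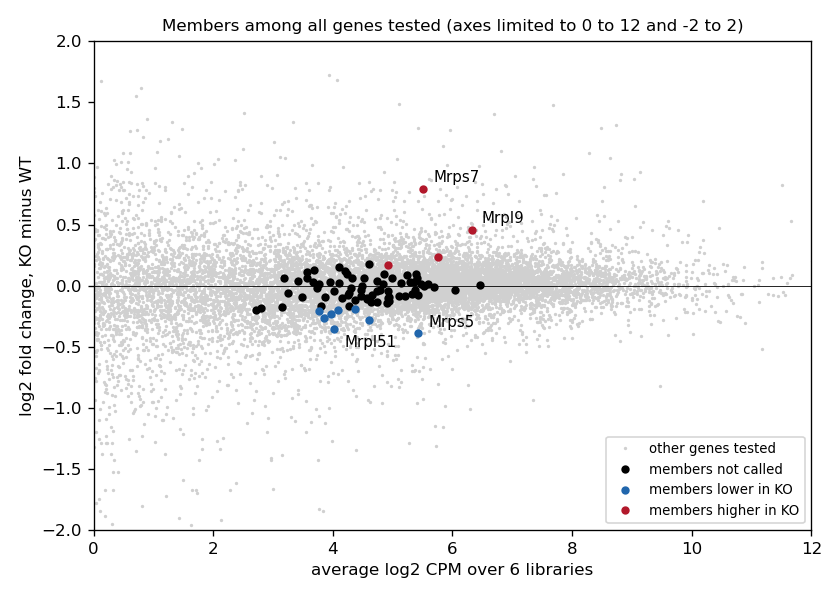
Log2 fold change (KO minus WT, y axis) against average log2 CPM over the 6 libraries (x axis) for all genes tested (light grey) and for the members (black where not called, blue lower, red higher). The members occupy the middle of the expression range, and Mrps7 and Mrpl9 are the members farthest above 0 and Mrps5 and Mrpl51 those farthest below.

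The WT and KO libraries did not overlap in 24 members with KO below and in 11 with KO above (30.8% and 14.1%). The corresponding shares of all genes tested were 19.1% and 19.3%, and in the members' range of expression 22.4% and 23.5%. Within WT, replicate 3 held the highest value for 40 of 78 members and replicate 1 the lowest for 40. Within KO, replicate 3 held the lowest value for 40 members. Without WT replicate 3 the median log2 fold change of the members was -0.00081.

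Among the small subunit genes, 3 were lower, 2 were higher and 24 were not called (17.2% called), with a median log2 fold change of -0.044. The gene with the largest change was Mrps7 (chr11:115603925-115608036, plus strand, GRCm38), which encodes a protein of the head of the small subunit that contacts the ribosomal RNA where the mRNA leaves. Mrps7 had 34.2, 33.4 and 32.7 CPM in WT and 59.3, 59.0 and 55.4 CPM in KO. The groups were far apart and replicates were close to each other, with a log2 fold change of 0.79 (SE 0.043, 95% interval 0.70 to 0.89, adjusted p = 3.08e-08). This is a 1.73-fold higher level, and it was between 0.76 and 0.82 on the log2 scale under all 19 alternative settings. Of the exon length of Mrps7, 11.9% overlaps the genes Gga3 and Mif4gd on the other strand, and how the counting used strand is not given in the sources used here. Gga3 fell in KO (log2 fold change -0.17, SE 0.037, adjusted p = 0.00422), and Mif4gd had a log2 fold change of 0.12 that was not called (adjusted p = 0.115).

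Mrps5 (chr2:127587222-127606829, plus strand), the homolog of a bacterial protein that lies near the mRNA entry and bears on decoding accuracy, moved the other way. Mrps5 had 47.4, 49.98 and 49.1 CPM in WT and 39.1, 35.9 and 36.8 CPM in KO. The groups did not overlap, and the level fell by 23.8% (log2 fold change -0.39, SE 0.045, adjusted p = 3.30e-05). No other gene's exons overlap it, and 8.40% of its 50-base stretches are also found in transcripts of other genes. Mrps25 (chr6:92169525-92184033, minus strand), a protein found only in mitochondria, had 26.0, 25.7 and 28.7 CPM in WT and 21.2, 24.6 and 20.1 CPM in KO (log2 fold change -0.28, SE 0.072, adjusted p = 0.0133). Here KO replicate 2 lay close to the WT libraries, and 69.8% of the exon length overlaps Nr2c2 on the other strand, so that reads of both genes may not be told apart. Nr2c2 itself had a log2 fold change of -0.0040. Mrps21 (chr3:95862634-95871519, minus strand), a small protein with a bacterial homolog, had 18.2, 18.3 and 17.7 CPM in WT and 14.9, 16.7 and 15.8 CPM in KO (log2 fold change -0.20, SE 0.058, adjusted p = 0.0247). The calls of Mrps25 and Mrps21 were lost without KO replicate 1 (adjusted p = 0.0745 and 0.117) and without KO replicate 3, and that of Mrps21 also without WT replicate 2.

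Several small subunit symbols need care, because a symbol was given before the structure was known. Mrps30 (chr13:118378381-118387252, minus strand) is carried in the large subunit of the mammalian mitochondrial ribosome. It had 53.1, 47.5 and 49.3 CPM in WT and 57.1, 61.4 and 57.3 CPM in KO, without overlap (log2 fold change 0.23, SE 0.049, adjusted p = 0.00377). Of its exon length, 9.35% overlaps the antisense transcript B430218F22Rik. The related genes Mrps18a, Mrps18b and Mrps18c, which share homology with bacterial protein S18, encode different positions in the ribosome, and Mrps18a is also a large subunit protein. None was called, and their log2 fold changes were -0.09 (SE 0.050), -0.12 (SE 0.062) and 0.13 (SE 0.057), with adjusted p-values of 0.232, 0.197 and 0.123. Mrps36 is now known as a subunit of a Krebs cycle dehydrogenase and not of the ribosome, and its log2 fold change was 0.040 (SE 0.070, adjusted p = 0.738). Mrps12, the protein of the decoding site, had 26.7, 24.9 and 26.3 CPM in WT and 24.2, 23.3 and 23.4 CPM in KO. Its groups did not overlap, and it was not called (log2 fold change -0.13, SE 0.049, adjusted p = 0.0639).

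Among the large subunit genes, 5 were lower, 2 were higher and 42 were not called (14.3% called), with a median log2 fold change of -0.035. The increase that stood out was that of Mrpl9 (chr3:94443318-94451130, plus strand), the homolog of bacterial ribosomal protein L9, which binds near the base of the stalk where tRNA leaves. Mrpl9 had 73.8, 67.3 and 60.8 CPM in WT and 93.4, 91.8 and 92.9 CPM in KO. The KO libraries lay within a narrow range above all WT libraries, which were spread (67.3 ± 6.49 CPM, SD, n = 3), and the log2 fold change was 0.46 (SE 0.055, adjusted p = 5.30e-05). Of its exon length, 5.81% overlaps Oaz3 on the other strand, which had a mean of 0.733 CPM in WT and 0.957 CPM in KO. Mrpl2 (chr17:46646229-46650139, plus strand), whose bacterial homolog is needed for peptide bond formation, had 28.6, 27.97 and 28.4 CPM in WT and 32.5, 32.3 and 31.1 CPM in KO (log2 fold change 0.17, SE 0.044, adjusted p = 0.0119). It has no overlapping gene, and its call was lost without WT replicate 2, KO replicate 1 or KO replicate 2.

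**Figure D3:**
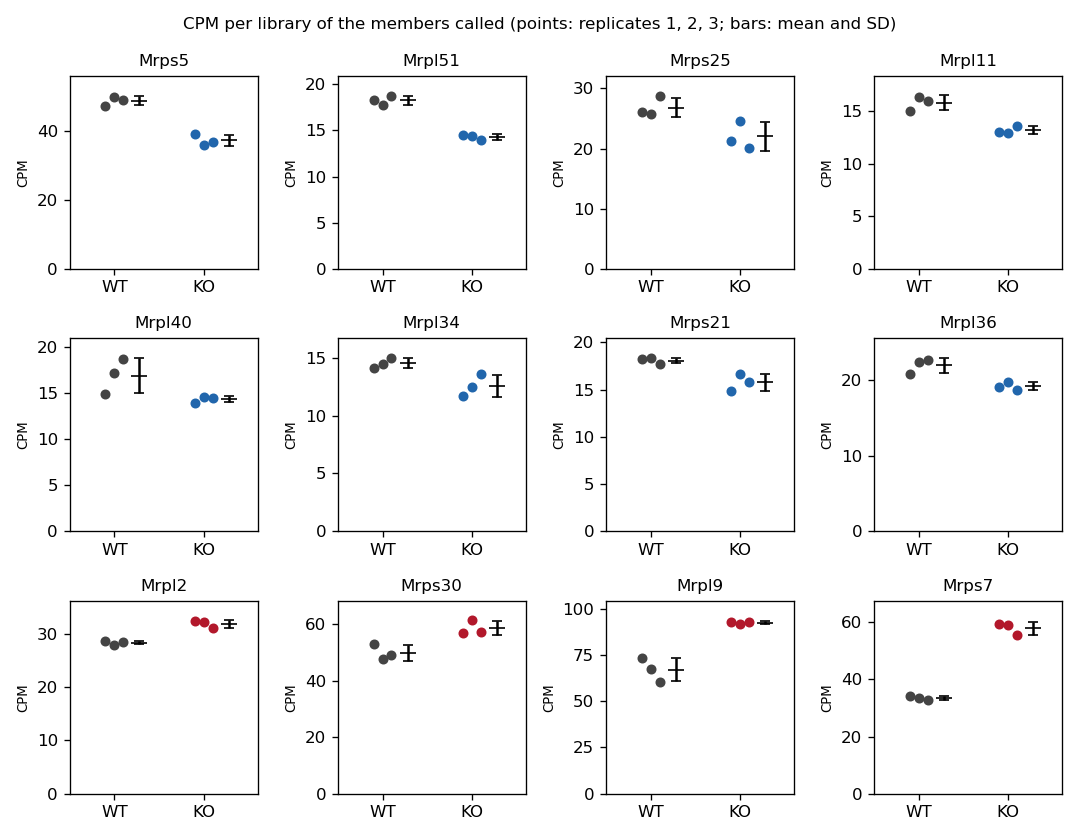
CPM of the 12 members called, in each WT library (grey points) and each KO library (blue lower, red higher), with the mean and SD of 3 libraries as bars; each y axis starts at 0. In all 12 genes the WT and KO libraries do not overlap, and the separation is widest for Mrps7.

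The large subunit genes that fell were Mrpl51, Mrpl11, Mrpl40, Mrpl34 and Mrpl36. Mrpl51 (chr6:125191801-125196269, plus strand), found only in mitochondria, had 18.3, 17.8 and 18.7 CPM in WT and 14.5, 14.4 and 14.0 CPM in KO (log2 fold change -0.35, SE 0.054, adjusted p = 0.000336). Mrpl11 (chr19:4962147-4966999, plus strand), which forms the base of the stalk where translation factors dock, had 15.0, 16.4 and 15.98 CPM in WT and 13.0, 12.9 and 13.6 CPM in KO (log2 fold change -0.26, SE 0.059, adjusted p = 0.00565). Both stayed called under every alternative setting. Mrpl40 (chr16:18872018-18876862, minus strand), in the central protuberance that faces the small subunit, had 14.9, 17.1 and 18.6 CPM in WT and 13.9, 14.5 and 14.4 CPM in KO (log2 fold change -0.23, SE 0.074, adjusted p = 0.0371). WT replicate 1 lay close to the KO libraries, and the call was lost when any library other than WT replicate 1 was left out. Mrpl34 (chr8:71464959-71465747, plus strand), with a bacterial homolog, had 14.1, 14.5 and 15.0 CPM in WT and 11.7, 12.5 and 13.6 CPM in KO (log2 fold change -0.21, SE 0.066, adjusted p = 0.0366), and was called in 14 of 19 alternatives. Mrpl36 (chr13:73328513-73332178, plus strand) is outside the naming rule and is named, after its values were seen, as the remaining member called. It had 20.8, 22.4 and 22.7 CPM in WT and 19.1, 19.8 and 18.8 CPM in KO (log2 fold change -0.19, SE 0.054, adjusted p = 0.0197), and leaving out WT replicate 2, KO replicate 1 or KO replicate 3 ended the call (edgeR adjusted p up to 0.0918).

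Neighbouring proteins of a structural region did not all move with the member that was called. In the stalk region, where Mrpl11 fell, Mrpl12, which recruits the translation factors, had 47.6, 51.5 and 57.3 CPM in WT and 55.2, 49.3 and 50.6 CPM in KO. These ranges overlapped fully (log2 fold change -0.0094, SE 0.064, adjusted p = 0.939). The third stalk protein, Mrpl10, had a log2 fold change of -0.039 (SE 0.044, adjusted p = 0.585). Around the exit of the peptide tunnel, Mrpl22, Mrpl23, Mrpl24, Mrpl45 and Mrpl47 gave log2 fold changes of -0.093, 0.042, 0.0073, 0.0097 and -0.20. Of these 5 genes 0 were called by edgeR, 0 had an unadjusted p under 0.05 and 0 were called under any alternative, DESeq2 and limma-voom included. Mrpl45 is known to tie the ribosome to the inner membrane, and its 95% interval was -0.092 to 0.11. Mrpl40 was the member called among the 4 genes assigned here to the central protuberance, which need not be all of its proteins. The others, Mrpl38, Mrpl46 and Mrpl48, gave log2 fold changes of 0.063, 0.15 and -0.019. Mrpl58, a peptidyl-tRNA hydrolase that was built into the large subunit and can release stalled chains, had 31.5, 32.7 and 32.1 CPM in WT and 29.7, 29.7 and 28.9 CPM in KO. It was just outside the threshold (log2 fold change -0.13, SE 0.043, adjusted p = 0.0502) and was called in 9 of 19 alternatives.

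The summed levels of the large and small subunit genes stayed close in WT and KO. Summed over the 49 large subunit genes, the level was 1316, 1328 and 1357 CPM in WT and 1337, 1346 and 1324 CPM in KO. Summed over the 29 small subunit genes, it was 773.7, 771.1 and 802.7 CPM in WT and 794.3, 798.4 and 767.1 CPM in KO. The WT and KO ranges overlapped in both. The ratio of large to small was 1.70, 1.72 and 1.69 in WT and 1.68, 1.69 and 1.73 in KO, and all members together held between 0.207% and 0.218% of the counts of every library. In a bulk library, fewer cells of a type and less RNA per cell cannot be told apart. The increases of Mrps7 and Mrpl9 weighed in these sums. Without them, the members summed to 1982, 1998 and 2066 CPM in WT and to 1979, 1993 and 1943 CPM in KO, a mean that fell by 2.17%, with WT replicate 1 below KO replicate 2.

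**Figure D4:**
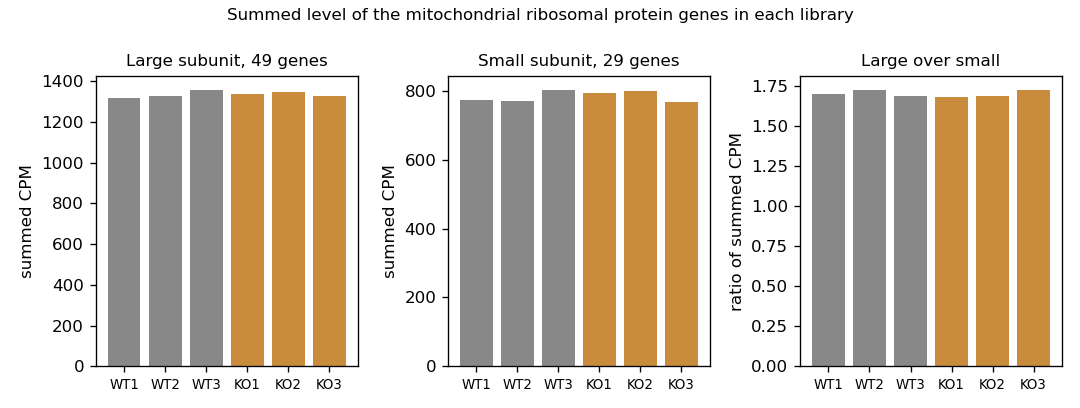
Summed CPM of the 49 large subunit genes (left) and the 29 small subunit genes (middle), and the ratio of the sums (right), as 1 bar for each library, WT in grey and KO in orange, with y axes from 0. The bars of WT and KO are of like height throughout, and the ratio lies between 1.68 and 1.73.

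When Mrps18a and Mrps30 were counted with the large subunit and Mrps36 was left out, the large subunit had 5 lower and 3 higher of 51 genes and the small subunit 3 lower and 1 higher of 26. Split by the origin assigned here, 5 of 46 genes placed with bacterial homologs were lower and 3 higher (17.4% called). Of 31 genes placed as found only in mitochondria, 3 were lower and 1 higher (12.9% called). The medians of these groups were -0.038 and -0.043. The split is approximate, because the second group holds Mrps18a and Mrps18b, which share homology with bacterial protein S18, and the hydrolase Mrpl58. None of these was called. Of the 43 genes with under 5% shared sequence or exon overlap with another gene, 4 were lower and 1 higher, and of the other 35, 4 were lower and 3 higher.

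Levels of different genes were compared per transcript length, as TPM computed from the principal transcript of each gene. On this scale the members spanned a wide range. Mrpl52 had a mean of 213.8 TPM and Mrpl24 150.4 TPM in WT, the highest of the large subunit, and Mrpl1 and Mrpl47 had 4.79 and 4.81 TPM, the lowest. Mrpl1 binds at the mobile stalk beside the exit site for tRNA, and Mrpl47 lies at the tunnel exit. In the small subunit, Mrps15 and Mrps34 were highest over all libraries, at 107.8 and 101.0 TPM in WT, and Mrps25 was lowest, at 10.1 TPM. Next came Mrps31 and Mrps17, at 13.5 and 14.1 TPM in WT and 13.9 and 13.1 TPM in KO, so that their order turned between the groups. The WT libraries of Mrps34 ranged from 88.5 to 114.8 TPM and those of Mrps15 from 102.7 to 111.3 TPM, so that these neighbours in the order did not differ beyond their spread, and nor did Mrpl1 (4.55 to 4.93) and Mrpl47 (4.47 to 5.26). Of the exon length of Mrps34, 77.8% overlaps other genes, Nme3 on the same strand (3.29 ± 0.232 CPM in WT, SD, n = 3) and Mapk8ip3 on the other (300.1 ± 27.2 CPM), so that its level and rank may include their reads. The same applies to 26.3% of the exon length of Mrpl24 and 24.2% of that of Mrpl47. The level also rests on the annotated length, which was 3556 bases for Mrpl1 and 418 for Mrpl52. The order of the members was nearly the same in both groups, with 73 of 78 within 5 rank places between WT and KO.

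The sequences before the start of Mrps7 and Mrpl9 are shown because these genes rose most and share a stretch of bases. RefSeq windows of 250 bases before to 50 after the annotated start (GRCm38.p6) were matched for 69 of the 78 members. The runs of 30 bases below are on the plus strand, at chr11:115604110-115604139 for Mrps7 and at chr3:94443269-94443298 for Mrpl9, with the shared 20 bases in capitals.
Mrps7: ctcacgCAGGCGCGCTGTGGGCAGCCctcc
Mrpl9: accactCAGGCGCGCCGCGGGCAGCCcaga
The capitals are identical at 18 of 20 positions. They lie 24 to 5 bases before the RefSeq start of Mrps7 and 61 to 42 bases before that of Mrpl9. In the GENCODE annotation Mrps7 starts farther upstream, so that its copy falls inside the span of the annotated gene. Whether the copy lies in an exon was not examined. The best match of any other member to the Mrps7 stretch was 15 of 20. Written as CAGGCGCGCNGNGGGCAGCC and searched on both strands, the stretch occurred in 3 of 32851 windows (0.00913%), those of Mrps7, Mrpl9 and Gga3. The window of Gga3 holds the same genomic copy as that of Mrps7, read from the other strand, 219 to 200 bases before its start. Gga3 fell while Mrps7 rose. The stretch was taken as the 20 bases most alike between the windows of Mrps7 and Mrpl9, after their values were known, and a match describes letters only.

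A shortened form, CAGGCNNNNNNNGGGCAGC, occurred in 17 windows (0.0517%) at 14 sites. Of the 14 genes with such a window that were tested, 6 were lower and 2 higher in KO. Nothing is read from this count, because it includes Mrps7 and Mrpl9, from which the pattern was taken with their rise known, and Gga3, which holds the Mrps7 copy. Of the other 11 genes, 5 were lower, 0 higher and 6 not called, and the 5 stand for 4 sites. The shares of all genes tested were 12.1% lower and 12% higher. The open positions of the pattern include bases that Mrps7 and Mrpl9 share, and they were chosen after the values were known. Neither count is therefore a test of the pattern. The 6 not called were Dcun1d1, Gm13283, Ift57, Jazf1, Nrm and Pitpnm1, whose copies hold the same fixed letters and are not shown. The pattern was thus found in genes that fell, in genes not called, and in Mrps7 and Mrpl9, which rose. The genes that fell are named here after their values were seen. Their copies are shown for comparison with the fixed letters in capitals, on the strand that matches the pattern.
Hadha and Hadhb: CAGGCgttcagcGGGCAGC
Pi4kb: CAGGCgtgagtcGGGCAGC
Smc2: CAGGCatgctctGGGCAGC
Ptges3: CAGGCgcgaacgGGGCAGC
The copies lie at chr5:30155187-30155205, chr3:94974717-94974735, chr4:52439015-52439033 and chr10:128058828-128058846. Their outermost bases lie 225 (Hadha), 66 (Hadhb), 14 (Pi4kb), 206 (Smc2) and 154 (Ptges3) bases before the RefSeq start. For Mrps7 and Mrpl9 this distance is 24 and 61 bases. In Hadha and Smc2 the match is on the strand opposite to the gene. Hadha and Hadhb, which encode the subunits of the mitochondrial trifunctional protein of fatty acid oxidation, are read in opposite directions from 1 shared copy. Their log2 fold changes were -0.42 (SE 0.038, adjusted p = 2.98e-06) and -0.18 (SE 0.047, adjusted p = 0.0141). Pi4kb, a lipid kinase, gave -0.57 (SE 0.040, adjusted p = 3.03e-07), Smc2, a condensin subunit, -0.31 (SE 0.051, adjusted p = 0.000539), and Ptges3, a chaperone partner, -0.23 (SE 0.051, adjusted p = 0.0050). Mrps7 and Mrpl9 were the genes with this pattern that rose.

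Motifs known from promoters of nuclear genes for mitochondrial proteins were also counted, on both strands. The core GCGCATGC of the NRF1 motif was in the windows of 8 of 69 members (11.6%) and in 2.71% of all windows, with Mrpl9 as the holder among the 12 members called. The ETS motif CCGGAAGT was in 12 members (17.4%) and in 3.89% of all windows, with Mrpl51 as the holder among members called. The core AAGATGGC of the YY1 motif was in 12 members (17.4%) and in 2.75% of all windows, and Mrps7 and Mrpl36 held it among members called. The member shares are per gene, and those of all windows per window. Counted per window, the shares of the 75 member windows were 10.7% for NRF1, 16% for ETS and 16% for YY1. These counts describe the letters in these windows and say nothing of binding.

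Many members start close to a neighbour that is read in the other direction. Such a head-to-head neighbour, with starts within 1000 bases or overlapping by up to 200, was found for 23 members, and in 22 of these pairs both genes were tested. Of the 23 members 6 were called (26.1%, close to the 24.1% of all genes tested), and of the 55 without such a neighbour 6 were called (10.9%); the difference was not tested. Of the 22 neighbours tested 8 were called, beside 24.1% of all genes tested, and this difference was not tested either. In 3 pairs both genes were called. Mrps5 and Zfp661, a zinc finger gene, fell together (Zfp661: log2 fold change -0.33, SE 0.11, adjusted p = 0.0380). Mrps7 rose and Gga3, an adaptor of Golgi transport, fell. Mrpl40 fell and Hira, a histone chaperone, rose (log2 fold change 0.17, SE 0.039, adjusted p = 0.00698). In the other pairs at most 1 of the genes was called.

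The other genes of mitochondrial translation also had few calls. Among 5 ribosomal proteins with other names, Gadd45gip1 fell, from 37.6 ± 1.19 to 32.3 ± 1.98 CPM (log2 fold change -0.22, SE 0.051, adjusted p = 0.00743), whereas Dap3, Ptcd3, Chchd1 and Aurkaip1 were not called (log2 fold changes 0.017, -0.055, -0.13 and 0.072). Among 25 factors that assemble the ribosome, 3 were lower (Ngrn, Mterf4 and Mtg2, with log2 fold changes of -0.29, -0.26 and -0.15) and 3 higher (Malsu1, Rcc1l and Rbfa, with 0.22, 0.20 and 0.15). Malsu1 keeps the subunits apart until the large one is ready, and Rbfa acts on the small subunit. Of 13 translation factors, the initiation factor Mtif3 (-0.27, SE 0.061, adjusted p = 0.00539) and the elongation factor Tufm (-0.15, SE 0.042, adjusted p = 0.0188) fell, and of 20 mitochondrial tRNA synthetases and related enzymes Pars2 fell (-0.30, SE 0.093, adjusted p = 0.0344). These shares were 20%, 24%, 15.4% and 5%, near to or below the 24.1% of all genes. The calls of the assembly factors depended on single libraries, with 10 called without WT replicate 1 and 0 without WT replicate 2.

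**Figure D5:**
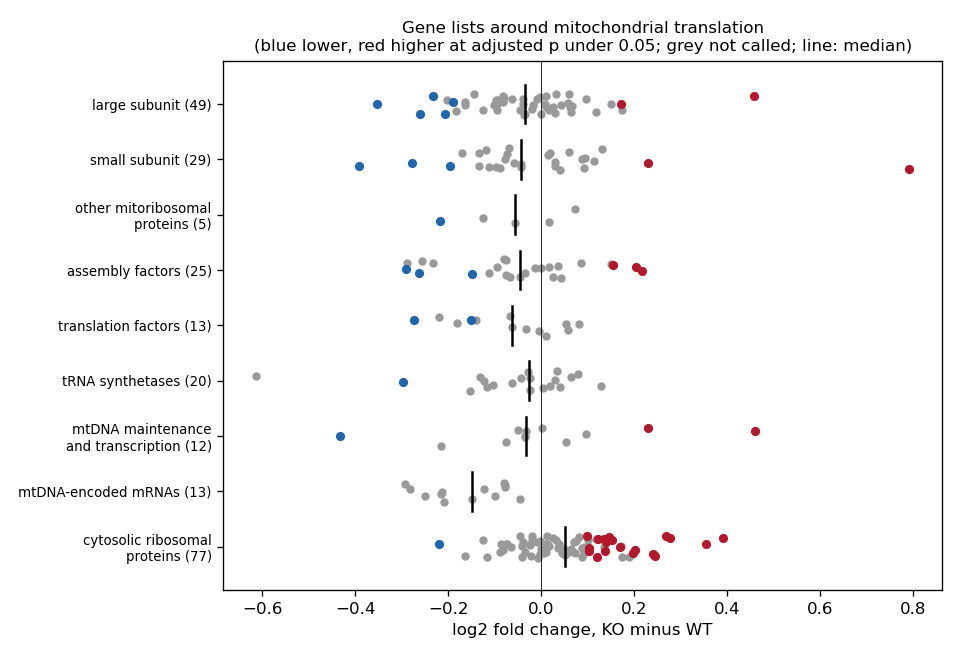
Log2 fold change (KO minus WT, x axis) of each gene in the large and small subunit and in 7 related lists (y axis, with the number of genes), as points, with the list's median as a black line. Blue points were lower and red points higher at an adjusted p under 0.05; all 13 mRNAs encoded by mitochondrial DNA lie below 0 without a call, and 20 of 77 cytosolic ribosomal protein genes are red.

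Of 12 genes that maintain or transcribe mitochondrial DNA, Tefm fell (log2 fold change -0.43, SE 0.13, adjusted p = 0.0309), and Polg2 and Tfb2m rose. These calls were 25% of the list, near the 24.1% of all genes tested. Tefm had a low level, with a mean of 3.27 CPM in WT and 2.46 CPM in KO. Polg2, the accessory subunit of the mitochondrial DNA polymerase, had 16.04, 16.7 and 14.5 CPM in WT and 21.3, 21.0 and 23.0 CPM in KO (log2 fold change 0.46, SE 0.063, adjusted p = 0.000152). Tfb2m, a mitochondrial transcription factor, had a log2 fold change of 0.23 (SE 0.055, adjusted p = 0.00844). The 13 mRNAs that the mitochondrial ribosome translates all had a log2 fold change below 0, with a median of -0.15. By edgeR 0 of 13 were called, 0 had an unadjusted p under 0.05, and DESeq2 and limma-voom also called 0. Their sum was 20951, 23206 and 26294 CPM in WT and 21133, 20241 and 22359 CPM in KO. WT replicate 1 lay within the KO range and the other WT libraries above it, and 7 of 13 were called when WT replicate 1 was left out.

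Among the proteins of the cytosolic ribosome, 20 of 77 genes were higher and 1 was lower in KO (26% and 1.3%, against 12% and 12.1% of all genes tested), with a median log2 fold change of 0.052. Leaving out WT replicate 1 raised the 21 calls to 35, and leaving out KO replicate 1 or KO replicate 2 lowered them to 11 or 12. Rpl30 had the largest increase (log2 fold change 0.39, adjusted p = 4.33e-06) and Rpl3 the next (0.36, adjusted p = 2.13e-06), while Rpl7 fell (-0.22, adjusted p = 0.000269). Set beside these, the mitochondrial ribosomal protein genes had 5.13% higher and 10.3% lower. The median SE was 0.040 in the cytosolic list and 0.054 in the members, so that smaller changes could be called in the cytosolic list. The difference between the lists was not tested.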

How the data were processed

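Total RNA of sorted splenic Tregs was sequenced after TruSeq library preparation (3 WT and 3 KO libraries). Per gene symbol, raw counts were deposited by the authors and used as they stand. The submitters' processing notes name HISAT2, DESeq2 and mm10; the counting tool, its annotation, its use of strand and whether reads or fragments were counted are not given in the sources used here. Of 32285 rows, 40 repeat a symbol, which was kept by the row of highest count.

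Counts were tested in R 4.3.3 with edgeR 4.0.16 (filterByExpr with a minimum count of 10, TMM, robust quasi-likelihood F-test of the newer method, Benjamini-Hochberg adjustment over 17307 genes, called at an adjusted p under 0.05), without covariates, on all 6 libraries. SEs were derived from the F statistic. Libraries that share replicate numbers were not treated as pairs, because the labels do not say so. Alternatives were other scalings and filters, DESeq2 1.42.0, limma-voom (limma 3.58.1), GC and length trends, counts divided by 4 (since the scale of the totals, 133283969 to 209041812, is uncertain), a replicate block and leaving out each library. The tests were checked on simulated counts. Positions, overlaps and lengths came from GENCODE M21 (GRCm38), and sequences from RefSeq windows (GRCm38.p6).

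The members and lists were chosen with earlier results of these data known. Genes named were, for each subunit, the called members with the largest changes (up to 4 in each direction), those at the extremes of per-length level, fixed structural groups, and genes that overlap or adjoin a member; exceptions are stated. Totals of counts do not give independent molecules, and counting error was not derived from them.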

Additional observations from a re-analysis of the deposited data

How the results depend on the processing

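Mrps7, Mrpl9, Mrps30, Mrps5, Mrpl51 and Mrpl11 kept their direction and their call under all 19 alternatives. Counts moved more. Members lower in KO numbered 13 with upper-quartile scaling, with a filter of 1 CPM in 3 libraries and with the GC trend removed, and 14 with library size only. Of these, 8, 8, 8 and 9 were large subunit genes and 5 each were small subunit genes, a count also reached by the replicate block with the GC trend removed. The median log2 fold change was -0.053 with upper-quartile scaling and -0.069 with library size only (large subunit -0.066). tRNA synthetases called were 3 with library size only and with the GC trend removed. With the study's cutoffs 0 members were lower and 1 was higher, against 757 and 446 of all genes. By structure, 1 small subunit gene was higher. With counts divided by 4, 15 members were called, among them all 12. The cause of these shifts was not tested.

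Same-numbered WT and KO libraries correlated at 0.028, 0.0082 and 0.033 in their deviations from the group means. Libraries with unlike numbers correlated at -0.037 to 0.019. With 3 libraries in each group, these values cannot decide whether the numbers mark pairs. With the replicate block 12 members were called, all 12 shared with the result without it. It called 1 of 13 mRNAs encoded by mitochondrial DNA, as did the block with the GC trend removed, and changed no other call count by over 1.5 times.

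Leaving out 1 library at a time gave 3 to 14 members lower, with 2 to 10 lower and 1 to 4 higher in the large subunit and 1 to 4 lower in the small. The median ranged from -0.050 to -0.00081 over the members and from -0.043 to 0.00064 in the large subunit. Calls ranged from 1 to 3 for the other mitoribosomal proteins, 0 to 10 for assembly factors, 1 to 3 for translation factors, 0 to 3 for tRNA synthetases, 1 to 3 for mitochondrial DNA expression, 0 to 7 for mRNAs encoded by mitochondrial DNA, 11 to 35 for cytosolic ribosomal proteins and 1341 to 2495 for all genes higher in KO. With 3 libraries in a group, members near the threshold such as Mrpl58 cannot be placed on either side of it.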
